A study of Aedes albopictus with 6 samples.

Results

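Circular RNAs (circRNAs) of phosphatase genes were followed in Aedes albopictus, the Asian tiger mosquito, in RNA from whole bodies. A circRNA is a closed transcript in which a downstream splice site is joined to an upstream one, and it is counted by the reads that cross this back-splice junction. Host genes, the genes from which circRNAs come, were taken as phosphatase genes when a product name held the word phosphatase in any case. This gave 58 of 4166 host genes and 110 of 8690 circRNAs. By name, 13 were tyrosine phosphatases, 2 dual specificity phosphatases, 26 serine/threonine phosphatases with their subunits (PP2A included), 10 lipid or inositol phosphatases and 7 others. The groups were virgin females and virgin males of the Foshan laboratory strain, all 2 days old, with 3 libraries per sex and 30 mosquitoes pooled in each. No mated, blood-fed or dissected mosquitoes entered the comparison, which asks how the sexes differ before mating. In whole bodies, fewer cells of a type and less RNA per cell cannot be told apart.

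Phosphatases remove phosphate groups that kinases add. Tyrosine phosphatases act on growth factor and adhesion signals at the membrane, and dual specificity phosphatases act on both tyrosine and serine or threonine, with MAP kinases as the best known targets. The serine/threonine enzymes PP1, PP2A, PP4 and PP6 have few catalytic subunits, and regulatory subunits bring these to their substrates. Lipid and inositol phosphatases set the phosphoinositides of membranes and the soluble inositol phosphates that release calcium.

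The 3 female libraries held 13322 to 17197 junction reads and the 3 male libraries 21624 to 27257. Phosphatase genes took 1.93% ± 0.09 of the junction reads in females and 1.84% ± 0.18 in males (SD, n = 3 each), so the whole set differed by less than the spread between libraries. Without its gene with the most reads, LOC109416253, the direction was the reverse. The share was then 1.05% ± 0.02 in females and 1.16% ± 0.11 in males, with libraries that overlapped. Levels below are junction reads per 10000 reads of a library scaled by TMM, a factor that evens out composition between libraries. Words that mark tissues were found among the host genes for neuron (15 genes), muscle (23), gut (10), ovary (7) and testis (3). No host gene was matched by the words bruchpilot, sallimus, vasa, nanos, oskar, piwi or vitellogenin receptor. Nor was any matched by the testis words tektin, radial spoke, outer dense fiber or the axonemal dynein names searched. Summed raw reads per 10000 of the muscle list were 29.7 to 35.7 in females and 39.4 to 44.8 in males, those of the ovary list 15.8 to 27.99 in females and 5.55 to 12.8 in males, and those of the gut list 12.01 to 22.03 in females and 2.57 to 6.04 in males. The gut sum was mostly trypsin genes, with 83 reads in females and 17 in males, whereas peritrophin had 2 in females and 9 in males and maltase 0 in females and 4 in males. In the muscle list, titin had 42 reads in females and 110 in males, twitchin 59 and 81, and troponin 13 and 8. In the ovary list, 4 genes with the words maternal protein had 72 reads in females and 56 in males. Of the others, encore had 28 in females and 12 in males and aubergine 4 and 0, whereas bicaudal had 2 and 5. The testis list had no reads in females and 0.37 to 1.61 per 10000 in males. Its male reads were 6 for the word sperm and 2 for cilia- and flagella-associated. The neuron list overlapped, at 35.5 to 48.2 in females and 42.5 to 44.8 in males. The part of these differences in the results below was not tested.

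Reads were very unevenly divided among the phosphatase genes. One gene, tyrosine-protein phosphatase non-receptor type 21 (LOC109416253), held 915 of 2269 phosphatase reads (40.3%). The next was a bifunctional sugar phosphate enzyme with 137 reads, and 19 genes had fewer than 10 reads. The median was 14.5 reads per phosphatase gene, against 8 per host gene in the whole series. Tyrosine phosphatases took 1.10% ± 0.12 of junction reads in females and 0.89% ± 0.12 in males. Without LOC109416253 the class took 0.21% ± 0.05 in females and 0.21% ± 0.05 in males. The serine/threonine class took 0.56% ± 0.06 in females and 0.62% ± 0.01 in males, the lipid or inositol class 0.12% ± 0.07 in females and 0.069% ± 0.042 in males, and the other phosphatases 0.14% ± 0.04 in females and 0.19% ± 0.08 in males (SD, n = 3 each throughout). The dual specificity class took 0.0065% ± 0.0060 in females and 0.068% ± 0.021 in males, so that every male library lay above every female library. This is the result of 1 gene, since LOC109402145 held 51 of the 53 reads of the class, and the other gene had 2 reads in females and 0 in males. The class holds only genes with the words dual specificity in a product name. In the tyrosine class every female library lay above every male library, with LOC109416253 included.

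**Figure D1:**
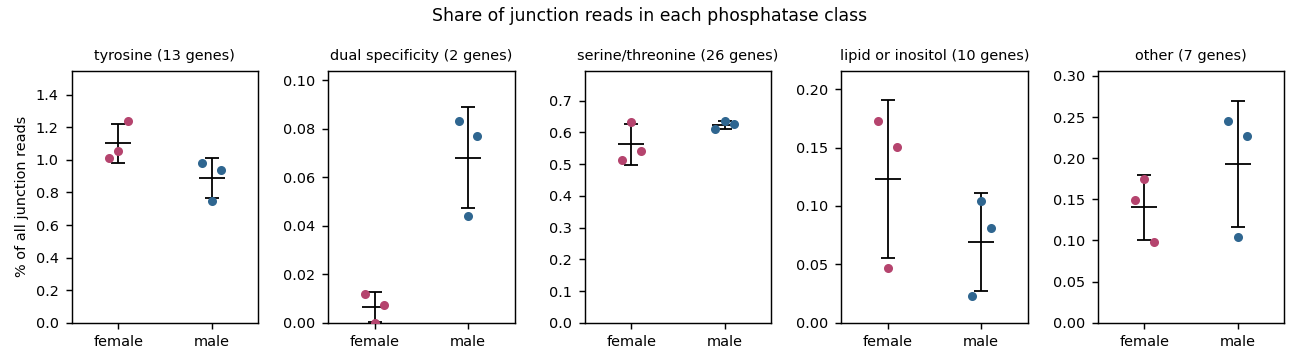
Share of all junction reads, in percent, taken by each phosphatase class, with 1 point per library, the mean as a bar and the SD as an error bar (3 female and 3 male libraries). In the tyrosine class the lowest female share (1.01%) lies above the highest male share (0.98%). Female and male libraries overlap in the serine/threonine, lipid or inositol and other classes, whereas in the dual specificity class, nearly all of it LOC109402145, the lowest male share (0.044%) lies above the highest female share (0.012%).

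Junction reads summed per gene were tested in 14 of the 58 genes, those that passed a filter on low counts, which held 76.9% of the phosphatase reads. The other 44 genes had 2 to 34 reads over the 6 libraries. Of the 14, 0 were higher in females and 2 were higher in males by the quasi-likelihood test of edgeR, with p-values adjusted by Benjamini-Hochberg for the 870 host genes tested. Across all host genes tested, 4.83% passed, with 2.53% above in females and 2.30% above in males. Of single circRNAs, 11 of 110 were tested, and again 2 passed, both with more reads in males, and 0 with more in females. Among all 738 circRNAs tested, 6.64% passed, with 3.79% above in females and 2.85% above in males. At an unadjusted edgeR p under 0.05, 1 gene and 1 circRNA, both of LOC109416253, were higher in females, and DESeq2 called 0 of either in females. With so few members tested, the counts describe these genes and circRNAs and not a property of the set. Log2 fold changes of female over male were under 0 for 7 of the 14 genes, beside 52.4% of all host genes tested, and for 6 of the 11 circRNAs, beside 50.4% of all circRNAs tested. The median log2 fold change was 0.08 over the 14 phosphatase genes and -0.05 over all host genes tested. Among all 58 genes, tested or not, pooled normalised reads were higher in females for 28 and higher in males for 30, against 1921 and 2245 of all host genes.

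**Figure D2:**
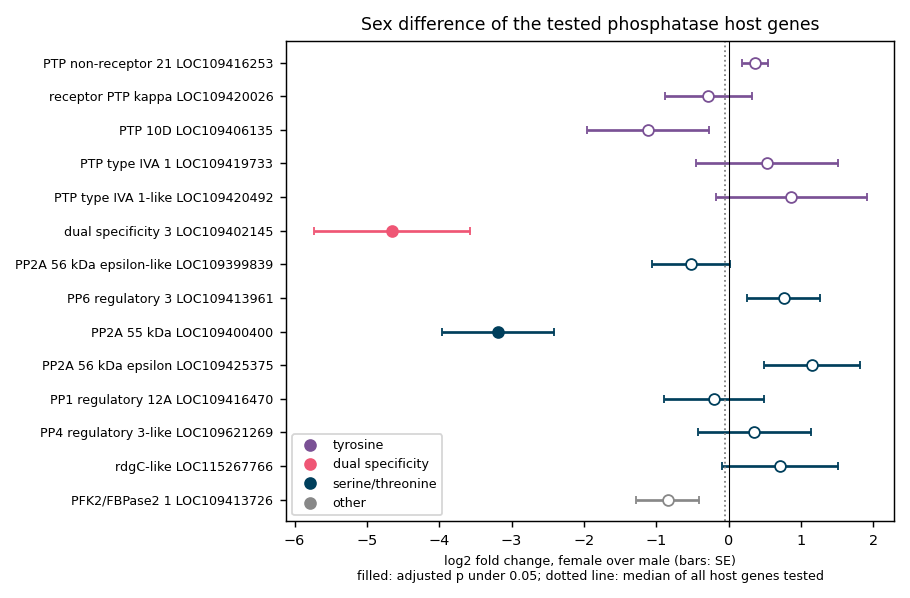
Log2 fold change of female over male (x axis) with its SE for the 14 tested phosphatase host genes, coloured by class and filled where the adjusted p passed 0.05. The genes of dual specificity phosphatase 3 (-4.65) and the PP2A 55 kDa subunit (-3.19) lie far to the left, and the other 12 lie between -1.11 and 1.15.

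Of the tested phosphatase genes, the one with the largest fitted sex difference was dual specificity protein phosphatase 3 (LOC109402145), an enzyme that in mammals removes phosphates from MAP kinases. Its single circRNA, an exon-exon junction on contig NW_021837378.1 at 20520128 to 20531045 on the plus strand, spans 10917 bases and is 421 bases long once spliced, near the 3′ end of a 177559-base gene. It had 0, 0 and 1 junction reads in the female libraries and 18, 11 and 21 in the male libraries. All male libraries were above all female libraries, and 2 of the 3 female libraries had no read. As the female count is 1 read, the ratio of pooled normalised reads, 31.8-fold higher in males, has a wide exact 95% interval of 5.45 to 1280. The fitted log2 fold change was -4.63 (SE 1.06, edgeR adjusted p = 0.0024) for the circRNA and -4.65 (SE 1.08, edgeR adjusted p = 0.0068) for the gene. Without female replicate 3, the library with the female read, the fitted value was -6.89 for the gene and for the circRNA. The gene's adjusted p ran from 0.0034 to 0.0488 over the 14 alternatives that gave one, and DESeq2 gave none.

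The other dual specificity gene, MPK-4-like (LOC109410894), had 2 reads in females and 0 in males, too few to test. A further pair of genes was counted in other classes. The vhp-1 gene (LOC109416369), named after a MAP kinase phosphatase of the worm Caenorhabditis elegans, had 5 reads in females and 10 in males. The RNA/RNP complex-1-interacting phosphatase (LOC109411968), which in mammals acts on RNA 5′ ends, had 8 reads in females and 5 in males. Neither was tested.

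Among PP2A subunits, the 55 kDa regulatory subunit (LOC109400400), which directs the enzyme to substrates of the cell cycle and of signalling, was higher in males. The gene lies on contig NW_021839130.1 at 64821944 to 64996979 on the minus strand and gave 4 circRNAs. Summed reads were 4, 0 and 1 in the female libraries and 30, 26 and 16 in the male libraries, or 2.48, 0 and 0.77 per 10000 in females and 14.5, 10.8 and 6.21 in males. The sexes did not overlap, and each of the 4 circRNAs had more reads in males. The main one (64954434 to 64954746, spliced length 311 bases) had 5 reads in females and 61 in males. The other 3 had 0 reads in females and 3, 4 and 4 in males. The log2 fold change of the gene was -3.19 (SE 0.77, edgeR adjusted p = 0.0087), a fold of 9.11 higher in males. It missed the threshold without male replicate 1 (edgeR adjusted p = 0.063) and without male replicate 2 (0.069), and it was -4.71 without female replicate 1. The main circRNA alone had -2.91 (SE 0.77, edgeR adjusted p = 0.0075), and -4.45 without female replicate 1. It missed the threshold without female replicate 2 (adjusted p = 0.072), male replicate 1 (0.080) or male replicate 2 (0.080).

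The gene LOC115259546, annotated as uncharacterized, lies on the same contig on the opposite strand and listed a circRNA at 65088673 to 65088985, which also spans 312 bases and is 311 bases long once spliced. This circRNA had 0, 0 and 1 reads in females and 9, 5 and 10 in males. The split of reads between both genes is therefore uncertain. With both circRNAs merged, a step chosen after the data were seen, the reads were 4, 0 and 2 in females and 32, 30 and 23 in males, a pooled ratio of 9.01-fold higher in males (exact 95% interval 3.97 to 25.2), with a log2 fold change of -3.13 (SE 0.70, edgeR adjusted p = 0.0015). A second circRNA of LOC115259546, 838 bases long, had 8 reads in females and 14 in males.

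Both genes of the 56 kDa epsilon subunit of PP2A, another family of targeting subunits, gave circRNAs of 384 and 583 bases, beside others of unshared lengths. They lie on contig NW_021838410.1 on the plus strand, LOC109399839 at 7029710 to 7174105 and LOC109425375 at 7735298 to 7872873, and in RefSeq's gene order for assembly AalbF5 there are 3 genes between them. LOC109399839 had 5, 17 and 8 reads in females and 10, 30 and 27 in males, and LOC109425375 had 9, 15 and 9 in females and 9, 10 and 3 in males. LOC109399839 overlapped between the sexes, whereas for LOC109425375 all female levels (5.58 to 8.91 per 10000) were above all male levels (1.16 to 4.35). Neither passed the test, with log2 fold changes of -0.52 (SE 0.54, edgeR adjusted p = 0.68) and 1.15 (SE 0.66, adjusted p = 0.38). LOC109425375 took 64.3%, 46.9% and 52.9% of the pair's reads in females and 47.4%, 25% and 10% in males. The female minus male difference was 27.2 percentage points (exact permutation test, two-sided, p = 0.2, n = 3 each, where the smallest p possible is 0.1).

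A 384-base circRNA was the main product of both 56 kDa genes. It had 12 reads in females and 44 in males at LOC109399839, and 17 in females and 12 in males at LOC109425375. At LOC109399839 all male libraries (3.24 to 8.45 per 10000) lay above all female libraries (2.20 to 2.92), and at LOC109425375 all female libraries (2.92 to 4.91) lay above all male libraries (0.363 to 2.82). A 583-base circRNA came from both as well, with 6 reads in females and 2 in males at LOC109399839 and 8 in females and 0 in males at LOC109425375. The 8 reads at LOC109425375, 1, 2 and 5 in the female libraries, are at least 4.19-fold higher in females, taking 3 reads over all males as the floor. Without female replicate 3 there are 3 reads, which is the floor itself, and no bound can be given. The 384-base circRNA did not pass the test at either gene (edgeR adjusted p = 0.343 and 0.565), and the 583-base one was not tested. How reads of these circRNAs of equal length were split between the genes was not tested either. The PP2A catalytic gene LOC109420084 had 0 reads in females and 3 in males.

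**Figure D3:**
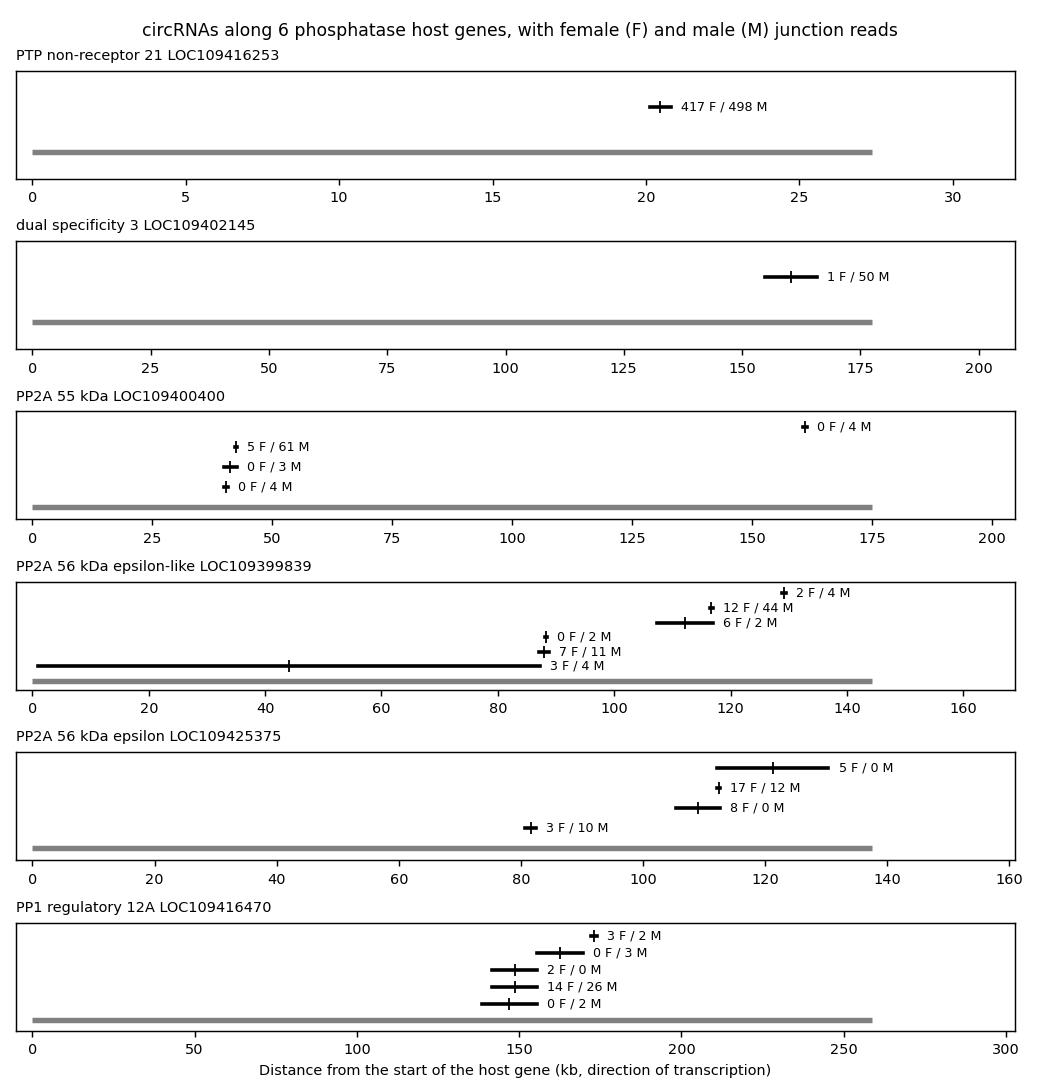
Positions of circRNAs (black bars, with a tick at the middle) along 6 phosphatase host genes (grey), in kb from the start of each gene, with junction reads summed over the 3 female (F) and 3 male (M) libraries. LOC109416253 and LOC109402145 gave 1 circRNA each, whereas circRNAs of LOC109400400 lie within one stretch, apart from a single one further on.

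Of the tyrosine phosphatases, non-receptor type 21, a cytoplasmic enzyme that binds membranes and the cytoskeleton through a FERM domain, gave the second most abundant circRNA of the series and ranked 5 among host genes. This was its only circRNA (contig NW_021838153.1, 160230755 to 160231448, plus strand), 553 bases spliced from a span of 693. It had 136, 152 and 129 reads in females and 164, 147 and 187 in males. In normalised reads per 10000 these were 83.5, 88.7 and 94.6 in females and 75.9, 59.2 and 67.8 in males, so all female libraries lay above all male libraries. The difference was small, a log2 fold change of 0.39 (SE 0.17), and did not pass (edgeR adjusted p = 0.14). It passed where only circRNAs with at least 10 reads in 3 libraries were tested (log2 fold change 0.47, edgeR adjusted p = 0.047). With no filter on low counts the log2 fold change was 0.084 (edgeR adjusted p = 0.807), and without male replicate 2 it was 0.21 (edgeR adjusted p = 0.713). The log2 fold changes of the other tested phosphatase circRNAs were also lower with no filter than in the main fit. An entry on the opposite strand at the position of the LOC109416253 circRNA had 2 reads.

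The receptor-type tyrosine phosphatases, which sit in the membrane and read cell contacts, showed no difference that passed. Receptor-type kappa (LOC109420026) gave 4 circRNAs and had 15, 2 and 10 reads in females and 17, 20 and 14 in males. The main circRNA, 550 bases long, had 23 reads in females and 31 in males. One of 522 bases had 2 in females and 13 in males, one of 562 bases had 0 in females and 6 in males, and one of 1212 bases had 2 in females and 1 in males. These 3 were not tested, and whether the circRNAs of the gene differ from one another was not tested either. Tyrosine-protein phosphatase 10D (LOC109406135), a receptor of axon guidance in Drosophila, had 0, 6 and 4 reads in females and 11, 8 and 15 in males, with normalised levels that overlapped (log2 fold change -1.11, SE 0.84, edgeR adjusted p = 0.52). Leaving out female replicate 1 gave -0.52, and leaving out female replicate 2 gave -1.75. Phosphatase 99A (LOC109431943), another axon receptor in Drosophila, went the other way in raw reads, with 9, 4 and 0 in females and 1, 0 and 5 in males, and was not tested.

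Genes of the type IVA 1 family, small phosphatases anchored to membranes by a lipid tail, came as a pair on contig NW_021838687.1. LOC109419733 had 0, 6 and 12 reads in females and 0, 4 and 17 in males, and LOC109420492 had 6, 3 and 5 in females and 3, 0 and 9 in males. Replicate 1 of both sexes thus had no read of the first gene, and neither gene passed the test (edgeR adjusted p = 0.83 and 0.73). Both genes listed a circRNA of 954 bases, with 7 reads in females and 5 in males at LOC109419733 and 9 in females and 1 in males at LOC109420492. The corkscrew genes LOC109418403 and LOC115253626, whose Drosophila namesake passes on signals of receptor tyrosine kinases, had 2 reads in females and 9 in males, and 8 in females and 5 in males. The remaining tyrosine phosphatases, both genes of non-receptor type 61F, which in Drosophila dampens insulin signals, and both of receptor-type-like N, had 2 or 3 reads each.

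**Figure D4:**
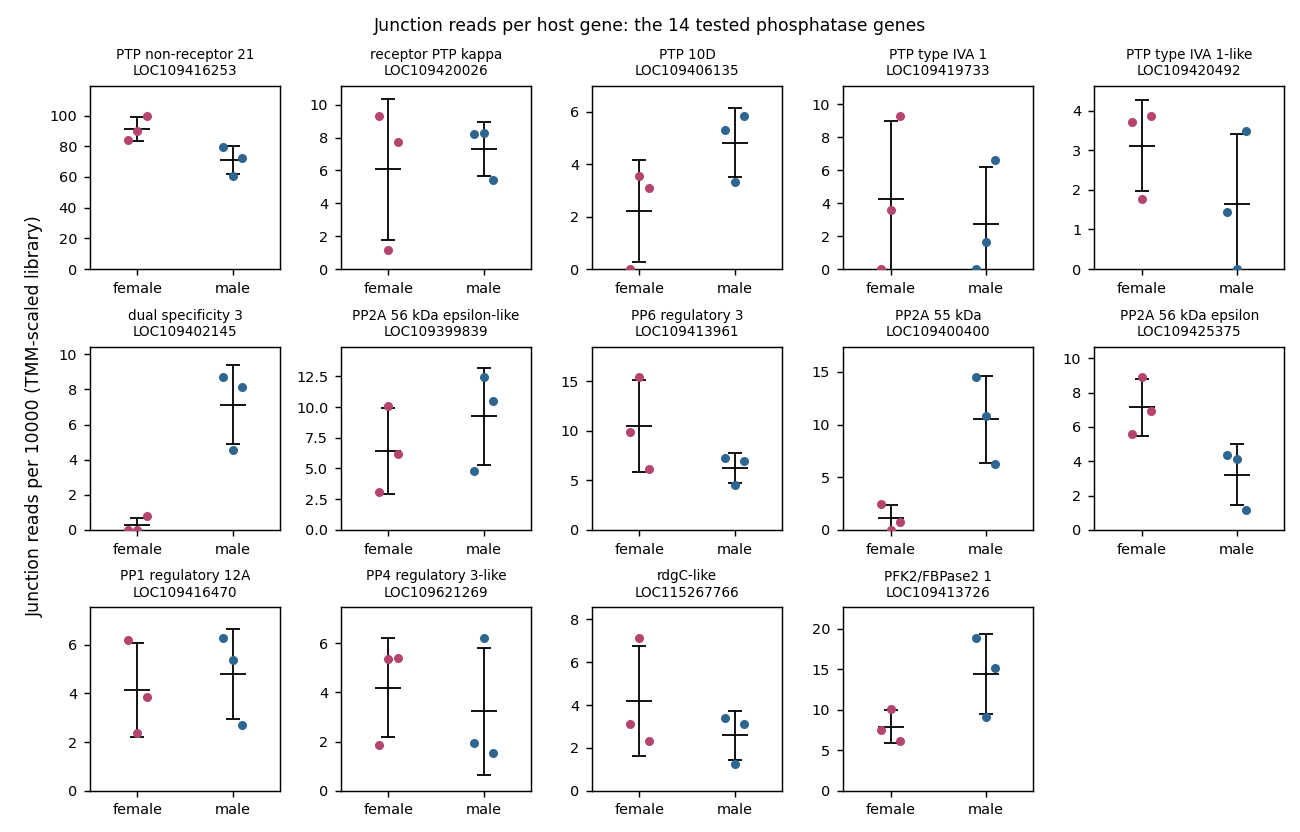
Junction reads per 10000 of the TMM-scaled library (y axis, from 0, its scale differs between panels) for the 14 tested phosphatase host genes, with 1 point per library and bars for mean and SD, cut at 0. Female and male points are apart for LOC109416253, LOC109402145, LOC109400400 and LOC109425375, and they overlap for the other 10.

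The libraries of both sexes did not overlap for 4 of the 14 tested genes, beside 24.8% of all host genes tested, and for 5 of 11 tested circRNAs, beside 27.0% of all circRNAs tested. These 5 were the circRNAs of LOC109416253 and LOC109402145, the main one of LOC109400400 and both 384-base ones. The 4 genes went in both directions: LOC109416253 and LOC109425375 were above in females, and LOC109402145 and LOC109400400 were above in males.

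Other serine/threonine phosphatase genes did not pass the test. The regulatory subunit 3 of PP6 (LOC109413961) had 16, 26 and 8 reads in females and 15, 11 and 18 in males, all from 1 circRNA of 670 bases (log2 fold change 0.76, SE 0.50, edgeR adjusted p = 0.44). Female replicates 1 and 2 lay above all male libraries and female replicate 3 lay within the male range. The 12A subunit of PP1 (LOC109416470), which targets PP1 to myosin, gave 5 circRNAs, with 10, 4 and 5 reads in females and 13, 13 and 7 in males (adjusted p = 0.92). Its main circRNA spans 13862 bases and is 430 bases spliced. A second circRNA, 427 bases spliced, shares one end with it and is shorter by 3 bases at the other, with 2 reads in females and 0 in males. The regulatory subunit 3-like of PP4 (LOC109621269) had 3, 9 and 7 reads in females and 4, 15 and 4 in males (adjusted p = 0.87). Further genes named after this PP4 subunit were not tested: LOC109400039 had 6, 0 and 6 reads in females and 2, 0 and 1 in males, and LOC115253475 had 2, 0 and 7 in females and 0, 1 and 0 in males.

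Some untested serine/threonine genes were uneven in their reads. Protein phosphatase 1L-like (LOC109398247), a metal-dependent phosphatase, had 2, 1 and 0 reads in females and 10, 2 and 14 in males, and the normalised levels overlapped. The PP1-beta gene LOC109418407 had 0 reads in all female libraries and 3, 3 and 6 in the male libraries, at least 2.60-fold higher in males with the floor set at 3 female reads in all. The other PP1-beta gene, LOC109418363, had 9, 0 and 2 reads in females and 3, 13 and 5 in males. The 16A subunit of PP1 (LOC109622245) had 8, 8 and 2 reads in females and 1, 5 and 2 in males, and its main circRNA, with 15 reads in females and 4 in males, did not overlap between the sexes. The 14B subunit (LOC109398302), named after an inhibitor of PP1, gave 6 circRNAs, as many as any phosphatase gene, with 6 reads in females and 23 in males spread over them so that none had more than 34.5% of the total. A gene whose isoforms are named phosphatase and actin regulator 4-like, a PP1 partner, or probable serine/threonine-protein kinase tsuA (LOC109412528) gave 5 circRNAs with 4 reads in females and 13 in males. A catalytic gene named alpha-2 (LOC109412802) had 2 reads in females and 5 in males, and the PP1 inhibitor 2 gene (LOC109621706), the PP6 ankyrin subunit (LOC109417642) and a PHLPP-like gene (LOC109404812) had 2 or 3 reads each.

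The rdgC genes, whose Drosophila namesake dephosphorylates rhodopsin in the eye, were 3 in number, LOC115267766, LOC115262973 and LOC109428850. They had 20 reads in females and 18 in males, 7 in females and 10 in males, and 10 in females and 2 in males. All 3 gave circRNAs of 842 and 437 spliced bases. The 842-base circRNA carried most reads of LOC115267766, at 18 in females and 14 in males, and that gene, the only one tested, did not pass (log2 fold change 0.71, SE 0.80, edgeR adjusted p = 0.72). Its log2 fold change was 0.042 without female replicate 2.

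No lipid or inositol phosphatase reached the test, and the class was thin in every library. The 4-phosphatase of phosphatidylinositol 4,5-bisphosphate (LOC109428654), a phosphoinositide of the cell membrane, had 3, 2 and 7 reads in females and 0, 16 and 6 in males. Inositol polyphosphate 5-phosphatase K (LOC109426510) had 8, 0 and 0 in females and 3, 6 and 3 in males. The type I inositol 1,4,5-trisphosphate 5-phosphatase (LOC109422023), which ends the calcium signal of inositol trisphosphate, and the 5-phosphatase A-like gene (LOC115256007) had 7 reads in each sex. Putative inositol monophosphatase 3 (LOC109412116) had 2, 4 and 4 reads in females and none in any male library, at least 5.12-fold higher in females with the floor set at 3 male reads in all. Putative phosphatidate phosphatase (LOC109427882), which makes diacylglycerol, had 5 reads in female replicate 1 and none in any other library, and inositol polyphosphate 5-phosphatase E (LOC109430632), an enzyme of primary cilia in mammals, had 3 reads in the same library alone. Both genes of multiple inositol polyphosphate phosphatase 1 had few reads, with 3 in females and 2 in males at LOC109412121 and 0 in females and 3 in males at LOC115253446. Of the 10 genes, 8 had more pooled normalised reads in females (80%, beside 46.1% of all host genes). This count rested on female replicate 1: without it, 3 of the 7 genes that still had reads were higher in females (42.9%, beside 41.4% of all host genes with reads).

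Among the other phosphatases, the bifunctional 6-phosphofructo-2-kinase/fructose-2,6-bisphosphatase 1 (LOC109413726), which sets the main activator of glycolysis, had 12, 17 and 8 reads in females and 39, 22 and 39 in males. In normalised levels the highest female library (10.1 per 10000) was above the lowest male library (9.12), and the gene did not pass (log2 fold change -0.84, SE 0.43, edgeR adjusted p = 0.31). Of its 4 circRNAs, the main one, 1056 bases spliced, had 37 reads in females and 78 in males, and the other 3, which were not tested, had 0 reads in females and 3, 5 and 14 in males. The one with 14 reads, 594 bases spliced, shares one end with the main circRNA and had 0 reads in females and 1, 8 and 5 in males. This is at least 2.97-fold higher in males with the floor set at 3 female reads, and at least 1.91-fold without male replicate 2. The second such enzyme gene (LOC109403338) had 10 reads in females and 12 in males. Genes of enolase-phosphatase E1, an enzyme that recovers methionine, had 6 reads in females and 15 in males at LOC109621572, and 7 in females and 5 in males at LOC109400059. An inorganic pyrophosphatase-like gene (LOC115263758) and LOC109415828, a phosphoglycolate phosphatase 2-like gene, had 2 reads each, all in 1 male library.

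Many phosphatase genes occurred under the same product name, and their circRNAs often had the same length. Of the 58 genes, 29 shared a product name with another, under 13 names, and 20 of these genes, under 9 names, gave a circRNA of the same spliced length as a namesake. Identical span as well as length was found in 9 sets of circRNAs, from which the reads of near-identical genes may be split in an uncertain way. The sets came from genes of the same product name, except that LOC109400400 and the uncharacterized LOC115259546 were paired by hand. The largest set came from 3 genes named after a small phosphatase of the RNA polymerase II tail, LOC109401068, LOC109399656 and LOC115267848. Each listed a circRNA of 181 spliced bases, with 3 reads in females and 22 in males, 2 in females and 17 in males, and 2 in females and 6 in males. Their reads merged were 1, 2 and 4 in females and 8, 12 and 25 in males, all male levels (3.70 to 9.07 per 10000) lying above all female levels (0.61 to 2.93). The merged circRNA was tested and did not pass (log2 fold change -1.92, SE 0.79, edgeR adjusted p = 0.13). The protein phosphatase 1L genes LOC109398247 and LOC109419770 are next to each other in the AalbF5 gene order, with 0 genes between them. Their merged 672-base circRNA had 3 reads in females and 28 in males, a pooled ratio of 5.93-fold higher in males (exact 95% interval 1.83 to 30.5). The interval covers counting error only. Levels of the sexes overlapped, with 1.23 per 10000 in female replicate 1 and 0.80 in male replicate 2, and the merged circRNA was not tested. Putative inositol monophosphatase 3 came as a pair too, LOC109412116 and LOC109430970. Their shared circRNA had 12 reads in females, 4 in each library, and 0 in males. This is at least 6.29-fold higher in females with the floor set at 3 male reads in all.

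**Figure D5:**
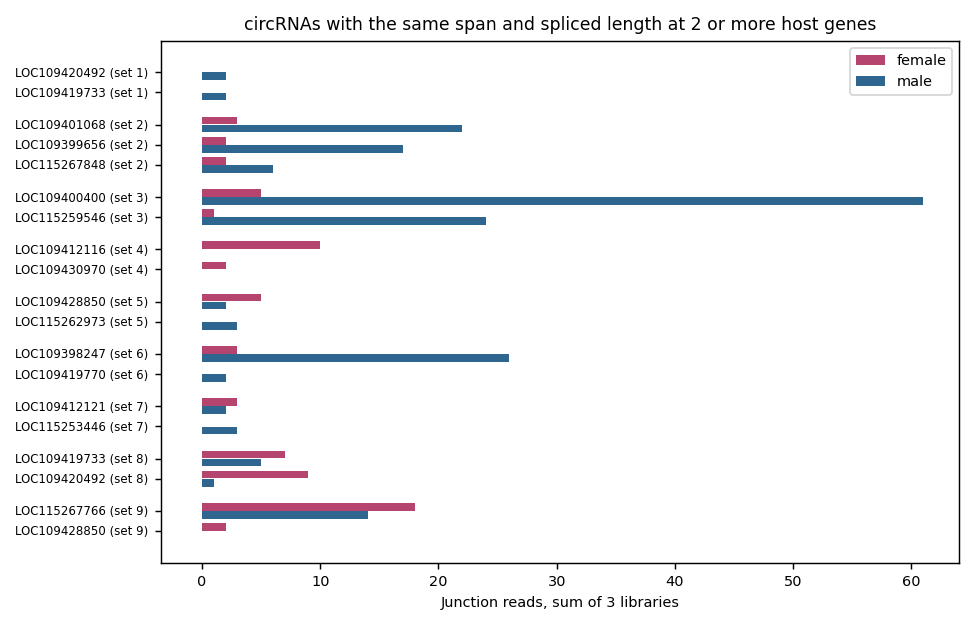
Junction reads summed over 3 female and 3 male libraries (x axis), in 9 sets of circRNAs. The circRNAs of a set have the same span and spliced length at 2 or more host genes of the same product name. Set 3 was paired by hand, since LOC115259546 is annotated as uncharacterized. Sets 1, 2, 3 and 6 (type IVA 1 tyrosine phosphatases, RNA polymerase II tail phosphatases, the PP2A 55 kDa gene with LOC115259546, and protein phosphatase 1L) hold more male reads at each gene, and set 4 (inositol monophosphatase 3) holds female reads alone. Set 1 has only 2 reads at each gene, all in male replicate 3. Set 8, from the same genes, holds more female reads at each gene, with 16 in females and 6 in males in sum. Set 9 (rdgC) does so too, with 20 in females and 14 in males.

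In structure, circRNAs of phosphatase genes were set beside those of the whole series, as a description. The whole series also holds circRNAs without a host gene, with 3.66% of its junction reads, which the choice of members leaves out. The shares below therefore have unlike bases, and the part of this in their gaps was not tested. Exon-exon junctions made up 102 of the 110 (92.7%), against 82.3% of all circRNAs. Spliced lengths had a median of 583 bases, with quartiles of 425.5 and 878, against a median of 648, and an intron lay inside 86 of 108 (79.6%) against 81.1%. The middle of an exon-exon circRNA lay nearer to the start than to the end of its gene for 24.5% of phosphatase circRNAs and 25.6% of all. A start codon was covered by 1 phosphatase circRNA, of the lipid or inositol class. Reads in all 6 libraries were found for 10 phosphatase circRNAs (9.09%, against 9.92% of all), and 36 (32.7%, against 43.7%) had reads in 1 library. A single circRNA was listed for 35 of the 58 genes, and the highest number was 6, for LOC109399839 and LOC109398302.

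Kinases that oppose these enzymes were examined through lists of product names. Of the MAP kinase pathway list, 16 host genes were found and 4 tested, with 3 log2 fold changes of female over male under 0 and a median of -0.56. Of the phosphoinositide kinases, 3 of 14 were tested (median -0.34), and of the tyrosine kinases 8 of 25 (median -0.17). In each list 0 genes passed in either direction by edgeR, 0 had an unadjusted p under 0.05 and 0 passed by DESeq2, beside 4.83% of all host genes tested and a median of -0.05. Summed reads of the MAP kinase list were 33.7 to 40.5 per 10000 in females and 47.6 to 52.7 in males, without overlap. The sums of the other kinase lists overlapped. They were 30.0 to 44.7 in females and 33.8 to 44.4 in males for phosphoinositide kinases. For tyrosine kinases they were 45.0 to 71.5 in females and 55.8 to 71.6 in males.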

How the data were processed

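Libraries were depleted of ribosomal RNA, treated with RNase R to digest linear RNA and sequenced with strand kept, per the labels' protocols. Bowtie2 2.1.0 is named in the submitters' processing notes; the caller of circRNAs, the build and the annotation were not given in the sources used here. The deposited table holds whole-number counts of junction reads, not normalised, per the file headers and values, and 30393 lines were collapsed to 8690 circRNAs by position and strand. Deposited spliced lengths are the authors' values. The deposited CPM table was not used. Positions are those of the table, and it is open to which base, 0 or 1, the starts refer.

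Counts per circRNA, and sums per host gene, went into edgeR 4.0.16 under R 4.3.3 (TMM factors, filterByExpr with minimum count 5 and minimum total 15, quasi-likelihood F test, Benjamini-Hochberg, threshold 0.05). The code was tried on simulated counts. The SE was obtained as the log2 fold change, unsigned, divided by the root of F. DESeq2 1.42.0 was one of the alternatives. Ratio intervals are exact (Clopper-Pearson, 95%). A floor is 3 reads over the 3 libraries of a sex. The intervals cover counting error only, since the reads are not independent molecules. Floor bounds take the reads of the higher sex as counted. They leave out the counting error of those reads and are not confidence limits. Within a sex, libraries differed beyond sampling noise, with a chi-square of 2.17 to 3.30 for each degree of freedom, and were kept as the separate biological replicates that the design describes.

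The members and lists were chosen with earlier results of these data known. Classes came from words in product names, first match: lipid or inositol, dual specificity, tyrosine, serine/threonine, other. LOC109415828 (phosphoglycolate phosphatase 2-like) and LOC109413726 were placed with the others, although their names match letters of the serine/threonine rule. Named genes were those that passed, the 5 with the most reads in each class, the 5 with the most circRNAs and the tested dual specificity gene. Other members were named after their values were seen. A list of PP1 and PP2A partners named without the word phosphatase matched 0 host genes. RefSeq's table for assembly AalbF5 held 40 of the 58 gene identifiers.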

Additional observations from a re-analysis of the deposited data

How the results depend on the processing

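The main test called 28 circRNAs higher in females and 21 in males, and 22 host genes higher in females and 20 in males. With no filter on low counts, 3 circRNAs and 13 host genes were higher in females. In that fit the log2 fold changes of all tested phosphatase genes and circRNAs were lower than in the main fit. Leaving out 1 library gave 11 to 29 circRNAs higher in females and 12 to 26 in males, and 6 to 26 host genes higher in females and 6 to 29 in males. The lowest counts came without male replicate 2. Counts of circRNAs higher in females were also low without male replicate 1 (16) or 3 (14), as was that of host genes higher in males without male replicate 1 (13).

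Among phosphatases, 0 were higher in females in each alternative except 1 circRNA (LOC109416253) where at least 10 reads in 3 libraries were required. The 2 circRNAs and 2 host genes higher in males became 1 to 2 without 1 library, and DESeq2 gave 1 host gene, with no adjusted p for LOC109402145. Among exon-exon circRNAs, the phosphatase share of exon-exon reads was 2.099% in females and 2.02% in males. The share of all junction reads was 1.05% in females and 1.16% in males without LOC109416253. Without 1 library, the share of all phosphatase genes was 1.88% to 1.97% in females and 1.79% to 1.95% in males.

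Log2 fold changes of 6 uncalled features changed sign. The main circRNA of LOC109420026 was -0.12 with no filter, and -0.22 to 0.64 without 1 library (-0.08 without female replicate 1, -0.18 without female replicate 3). Without 1 library the gene LOC109420026 was -0.79 to 0.18, LOC109621269 was -0.051 to 1.19 as a circRNA and -0.076 to 1.19 as a gene, LOC109416470 was -0.63 to 0.047 and LOC109419733 was -0.62 to 2.09 (-0.048 without male replicate 1). The causes were not tested.

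With the replicate number as a block, 28 circRNAs and 28 host genes were higher in females and 21 circRNAs and 24 host genes in males, and LOC109402145 and LOC109400400 passed (edgeR adjusted p = 0.0072 and 0.0032). Deviations of same-numbered libraries correlated at -0.017 to 0.047, so the numbers are not taken to pair them. Depth left 44 of 58 genes untested. Leaving out libraries for pooled directions and floors was chosen after the data were seen.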
